A study of Mus musculus with 16 samples.

Results

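The response of wild-type (WT) mouse lung to house dust mite extract (HDM) was read from 8 of the 16 arrays of a study of Vldlr, which encodes the receptor for very low density lipoproteins. The 8 arrays were those labelled as WT lung after HDM (4 arrays) and WT lung after saline (4 arrays), and the comparison covered all 19938 genes that a probe set named by 1 symbol measured. WT mice were of the strain B6129SF2/J. They were given 25 µg of HDM, or saline alone, through the nose in 10 µl, on 5 days of each week for 6 weeks, and the series describes them as sensitized and challenged. RNA was taken from whole lung. The other 8 arrays came from Vldlr-/- mice (knockout, KO; no strain is labelled) under the same 2 treatments, 4 arrays each, and are used here for the estimate of spread and for 1 comparison at the end. Every group, the saline controls included, went through the same repeated intranasal dosing. The sources used here do not give age, sex or the number of animals behind each RNA. The arrays of a group are labelled biological replicates, and p-values speak only of the spread between them.

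House dust mite extract contains proteases, lipid-binding proteins, chitin and microbial products. Inhaled repeatedly, it is known to make airway epithelium release alarm cytokines, to raise T helper 2 responses with eosinophils and mast cells, to turn airway secretory cells into mucus-producing goblet cells, and to shift lung macrophages towards the alternative activation that interleukin 4 and interleukin 13 drive. Levels are the deposited values on the log2 scale, so a difference of 1 is a 2-fold difference in signal, and levels of different genes are not comparable with each other because each probe set binds with its own strength. A change is the mean of the HDM arrays minus the mean of the saline arrays. A gene is said to have risen or fallen where the Benjamini-Hochberg adjusted p of limma, over all genes, was under 0.05, and SE stands for the standard error that limma gives a change (4 arrays a group). Values by array are given for replicates 1 to 4 in that order, which is only the order of their labels.

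Array medians lay between 8.78 and 8.85, and no pair of the 16 arrays correlated below 0.9798. The tissue label was checked against defining genes: those of alveolar type 2 cells (Sftpc, Sftpb, Abca3, Lamp3) had a summed signal, on the log2 scale, of 15.04 to 15.07 on the saline and 15.12 to 15.22 on the HDM arrays, and those of endothelium (Pecam1, Cdh5, Cldn5) one of 14.44 to 14.56 and 14.38 to 14.49. Heart muscle genes (Myh6, Nppa, Myl7) were also present, with a summed level of 11.72 to 12.15 on the saline and 11.43 to 12.02 on the HDM arrays, and none of the 3 passed; their part in the results was not tested. In the first principal component of the 8 WT arrays, which held 45.2% of their variance, the saline arrays lay between -17.71 and -12.44 and the HDM arrays between 5.53 and 19.78. The second component (19.9%) spread the HDM arrays from -20.52 (HDM 2) to 14.65 (HDM 3), against -5.02 to 5.77 for the saline arrays. Vldlr itself was at 10.54, 10.50, 10.59 and 10.75 with saline and 10.56, 10.92, 10.48 and 10.27 with HDM in WT, a change of -0.04 (SE 0.12, adjusted p = 0.832). In KO lung it was at 9.83 ± 0.07 (SD, n = 4) with saline and 9.63 ± 0.21 (SD, n = 4) with HDM, less than 1 unit below the WT means. The sources used here do not say where the disruption lies relative to the probes, so these levels do not by themselves check the KO labels.

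HDM was followed by many small changes and few large ones. Of 19938 genes 3505 passed (17.6%), 1568 of them higher (7.86% of all genes) and 1937 lower (9.72%). The median size of a change that passed was 0.28. It was 0.33 for rises and -0.25 for falls, and 45 genes rose but only 6 fell by at least 2-fold. The median change of all genes was -0.05. The 4 HDM arrays lay wholly above the 4 saline arrays in 1820 genes (9.13%) and wholly below them in 2866 (14.4%), and 2905 of the genes that passed were without such overlap.

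The direction of a change went with the level of the gene. With genes divided by mean level into 4 groups of 4985 or 4984, in the lowest group (3.48 to 8.05) 58 rose and 529 fell, whereas in the highest group (10.23 to 14.57) 734 rose and 458 fell. After quantile normalization the lowest group had 134 rises and 86 falls and the highest 519 rises and 670 falls, so the lean of calls by level turned with the scaling. The share of calls that were rises was 44.7% as deposited, 49.3% after quantile normalization and 52.7% with all arrays shifted to the same median. Of 1228 receptors of the nose and taste organs, dim genes of other tissues, 8 rose and 82 fell as deposited, whereas after quantile normalization 19 rose and 17 fell, against 7.14% and 7.33% of all genes. After the shift of medians 8.42% of all genes rose and 7.55% fell. Genes for long non-coding RNA (19 of 726 rose and 92 fell) and microRNA genes (13 of 297 rose and 34 fell) leaned to falls as well.

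**Figure D1:**
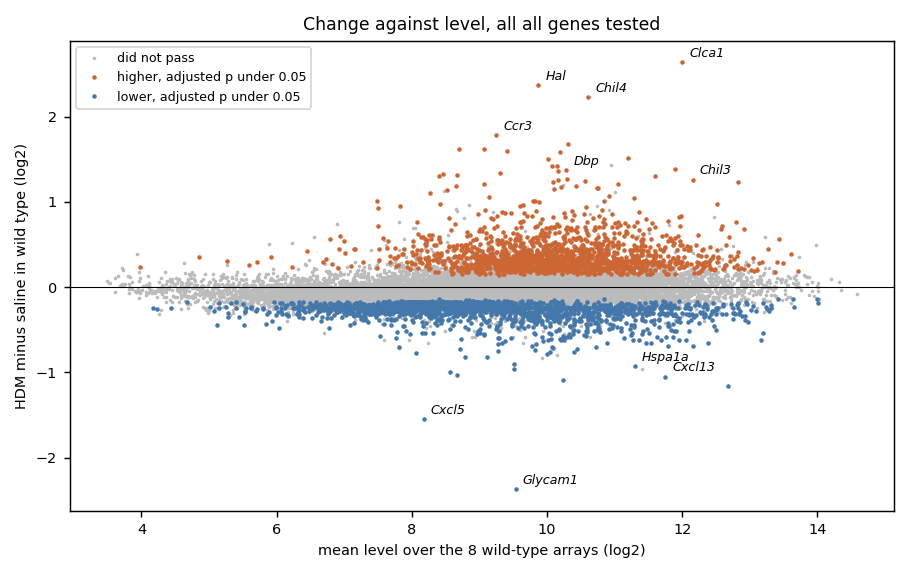
Each point is 1 of 19938 genes, with its mean level over the 8 WT arrays (log2) on the horizontal axis and its change in WT lung, HDM minus saline (log2), on the vertical axis. Genes that passed are coloured by direction, and rises at low levels are sparse (58 in the lowest of 4 groups by level).

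The number of calls depended on single arrays. Leaving out WT saline 1 gave 1969, WT saline 2 gave 2141, WT saline 3 gave 2209, WT HDM 2 gave 2277 and WT HDM 4 gave 1960, each more than 1.5 times below 3505. It was 2739 to 3611 when 1 of the other 3 WT arrays was left out. Of the 163 genes named below that passed, 103 did so whichever of the 8 WT arrays was left out. Calls of the rest are given with the arrays whose omission ended them. Junb, Rtkn2, Synpo2, Scgb1c1, Klhl38, Fxyd4, Jchain, Ccna2 and Pcna, named below without this check, are outside the counts of named genes and named calls. Without WT saline 2 and 3 together 1057 genes passed (5.3% of all, 646 or 3.24% higher and 411 or 2.06% lower), and these are the arrays whose type 2 genes stood high, as described further on. Of the 3505 genes, 1028 were among those 1057.

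The largest rises included genes of goblet cells, macrophages, eosinophils and the circadian clock, and the largest falls included chemokines. Among genes that passed without overlap between groups, with predicted genes and small RNAs left aside, the 15 largest rises were Clca1 (2.64), Hal (2.37), Chil4 (2.23), Ccr3 (1.78), Alox15 (1.68), Awat1 (1.62), Inhba (1.60), Retnlg (1.59), Gapt (1.5), Ccl3 (1.42), Muc5ac (1.42), Atp6v0d2 (1.39), Dbp (1.37), Tnip3 (1.34) and Cd200r4 (1.33). The 15 largest falls were Glycam1 (-2.37), Cxcl5 (-1.55), Ccl19 (-1.09), Cxcl13 (-1.05), Bpifa2 (-1.03), Ccl20 (-0.96), Hspa1a (-0.93), Prss30 (-0.82), Cr2 (-0.82), Il1f9 (-0.77), Pilra (-0.76), Cox7a2 (-0.76), Gzma (-0.75), Gjb2 (-0.73) and Psmb10 (-0.71). Glycam1, Cxcl5, Ccl19, Cxcl13 and Ccl20 are chemokines or lymphoid homing genes. In whole lung, a change in the number of cells of a type and a change of the RNA in each cell cannot be told apart, and this holds for every result given here.

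**Figure D2:**
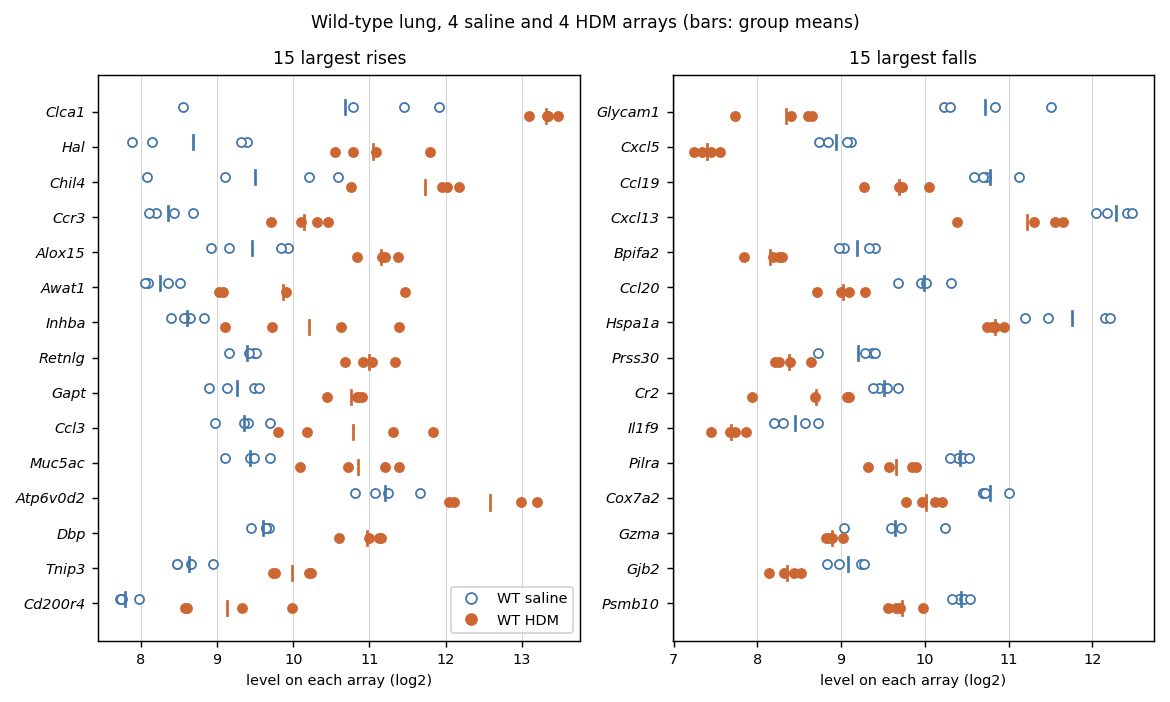
Level (log2, horizontal axis) of the 15 largest rises and the 15 largest falls on each WT array, 1 gene a line, with open points for the 4 saline arrays, filled points for the 4 HDM arrays and bars for group means. The groups do not overlap in any of these genes, as their choice required.

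**Figure D3:**
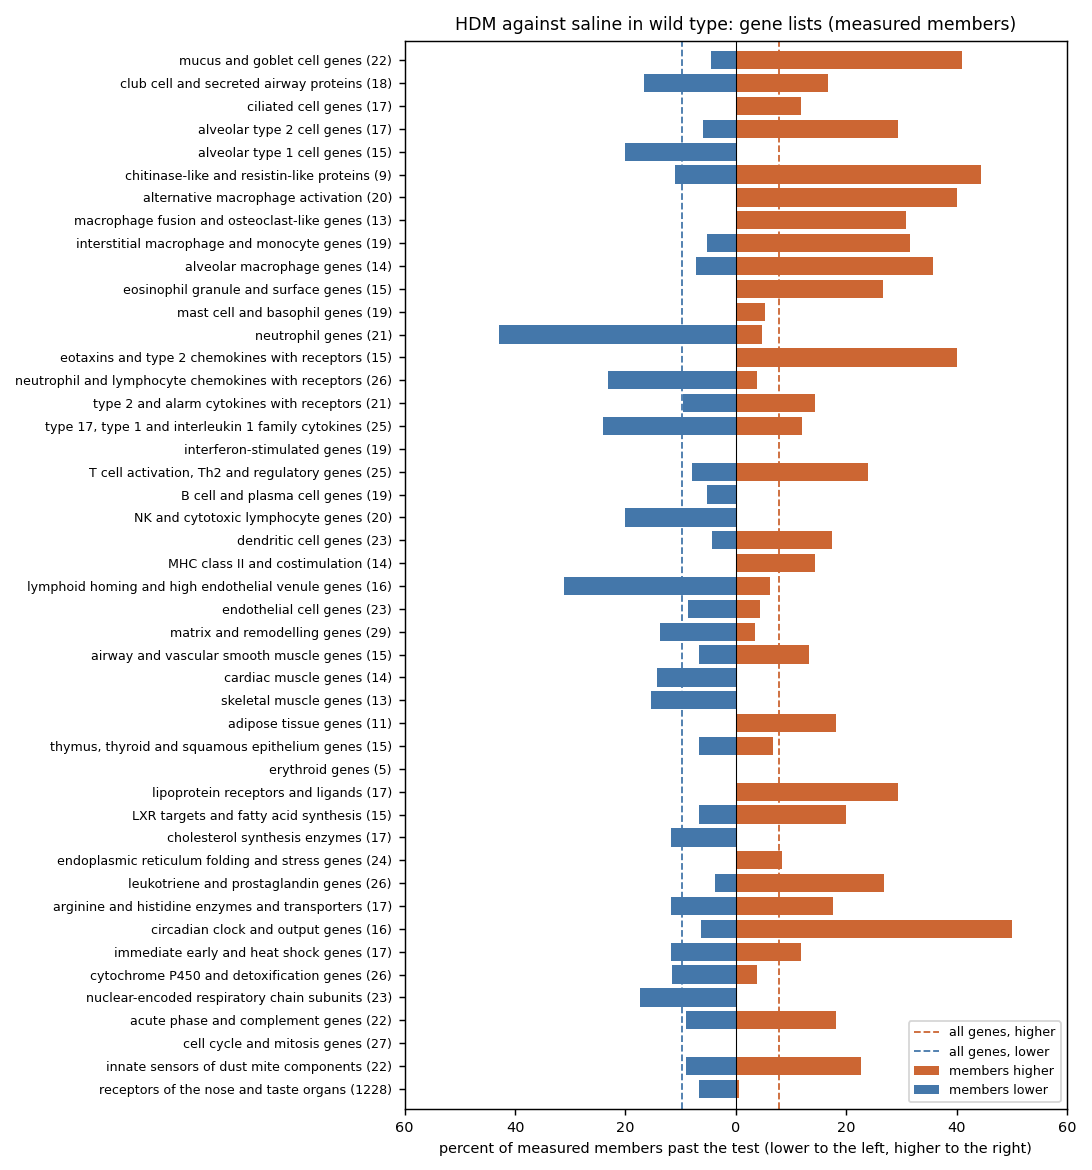
For each of 46 gene lists, the bars give the percentage of its measured genes that rose and that fell in WT lung after HDM. The dashed lines mark the same percentages over all genes, 7.86% higher and 9.72% lower.

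Genes of mucus rose more often than they fell. Of 22 measured genes of mucus and goblet cells 9 rose and 1 fell, 45.5% in all against 17.6% of all genes, and 12 did not pass. The median change of the list was 0.16, against -0.05 over all genes. Muc5ac, the gel-forming mucin that goblet cells add to airway mucus in allergy, was at 9.43, 9.49, 9.11 and 9.70 on the saline arrays and 11.21, 11.39, 10.72 and 10.09 on the HDM arrays, and rose by 1.42 ± 0.20 (SE, adjusted p = 0.000425). Clca1, a secreted goblet cell protein, was at 8.55, 11.91, 11.46 and 10.79 with saline and at 13.09, 13.48, 13.35 and 13.33 with HDM. Its saline arrays were spread over more than 3 units, saline 1 being the lowest, whereas the HDM arrays were close together, and the groups did not overlap. Agr2, the disulfide isomerase that folds mucins in the endoplasmic reticulum, rose by 1.18 ± 0.19 (SE, adjusted p = 0.00102), and Slc26a4, the apical anion exchanger pendrin, by 1.0 ± 0.17 (SE, adjusted p = 0.00129). The saline arrays of these 2 genes lay within 0.32 (Agr2) and 0.42 (Slc26a4) of each other, below every HDM array.

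Smaller rises were those of the polymeric immunoglobulin receptor Pigr (0.67), which carries IgA into the airway lumen, the membrane mucin Muc16 (0.45), and Galnt12 (0.24), one of the enzymes that start O-glycan chains on mucins. Muc5b, the mucin that airways make in health, rose by 0.48 with overlapping groups, and its call ended without WT HDM 2 (0.37), WT saline 2 (0.41) or WT saline 3 (0.38). Ern2, the endoplasmic reticulum stress sensor of mucous cells, rose by 0.18, a call that ended whichever WT array was left out. The goblet cell regulators Spdef (-0.08) and Foxa3 (0.14), the trefoil peptide Tff2 (0.30) and the lectin Itln1 (0.24) did not pass. The list's fall was Dmbt1, a scavenger receptor in airway fluid (-1.0), and its call ended without WT HDM 2 (-0.83), WT HDM 4 (-1.03), WT saline 1 (-0.63) or WT saline 4 (-1.0). Without WT saline 2 and 3 the list had 6 rises and 2 falls.

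The chitinase-like and resistin-like proteins are secreted by macrophages and epithelium and are standard readouts of type 2 lung inflammation in mice. Of 9 measured members 4 rose and 1 fell, 55.6% in all against 17.6% of all genes (median 0.35). Retnlg, a resistin-like protein of myeloid cells, was at 9.16, 9.49, 9.51 and 9.42 on the saline arrays and 10.91, 10.68, 11.34 and 11.03 on the HDM arrays. The groups were more than 1 unit apart and each was tight, and the change was 1.59 ± 0.11 (SE, adjusted p = 6.64e-07), the smallest p among the 15 largest rises. Retnla, resistin-like molecule alpha, was at 11.59, 12.93, 12.74 and 12.39 on the saline arrays and 12.94, 13.25, 13.30 and 13.21 on the HDM arrays, with saline 1 the lowest and no overlap. It rose by 0.76 ± 0.21 (SE, adjusted p = 0.0218). Without WT saline 1 the change was more than 1.5 times smaller, at 0.49, and its call ended without WT HDM 2 (0.74) or WT HDM 4 (0.75).

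Chil3 (Ym1) and Chil4 (Ym2), chitinase-like proteins without chitinase activity, both rose. Chil3 was at 11.35, 12.08, 11.53 and 11.13 on the saline arrays and 12.67, 12.32, 13 and 13.16 on the HDM arrays, and Chil4 at 8.08, 10.59, 10.20 and 9.10 on the saline arrays and 10.76, 11.95, 12.02 and 12.17 on the HDM arrays. Saline 2 held the highest value of its group in both, yet the groups did not overlap. The changes were 1.26 ± 0.18 (SE, adjusted p = 0.000425) and 2.23 ± 0.42 (SE, adjusted p = 0.00282). Chitotriosidase, Chit1, which does cut chitin, fell by 0.25, a call that ended without WT HDM 2 (-0.21), WT HDM 4 (-0.23), WT saline 2 (-0.24) or WT saline 3 (-0.24), and the acidic chitinase Chia1 (0.33) did not pass, nor did Chil1 (0.35), Retn (0.04) and Retnlb (-0.14). Chil3 and Chil4 are near-identical copies, and Retnla and Retnlg are close relatives, so each value may hold signal of its relative.

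Promoter sequences of Retnla and Retnlg are shown because these members, neighbours on chromosome 16, rose together and carry the spaced palindrome TTC, any 4 bases, GAA, the pattern that STAT6, the transcription factor of interleukin 4 and interleukin 13 signalling, is known to bind. The windows run from 250 bases before to 50 bases after the start of transcription, are from RefSeq on GRCm38.p6, and are written 5′ to 3′ on the strand of the gene, with the matching bases in capitals. The Retnla window is chr16:48842359-48842658 on the plus strand with 1 match, at bases 106 to 115, and the Retnlg window is chr16:48872358-48872657 on the plus strand with 1 match, at bases 179 to 188.
Retnla: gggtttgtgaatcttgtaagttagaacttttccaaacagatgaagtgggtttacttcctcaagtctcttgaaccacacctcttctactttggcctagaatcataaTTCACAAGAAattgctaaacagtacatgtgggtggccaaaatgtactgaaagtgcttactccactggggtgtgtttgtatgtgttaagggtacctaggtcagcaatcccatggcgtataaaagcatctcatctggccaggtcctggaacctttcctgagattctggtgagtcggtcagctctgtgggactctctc
Retnlg: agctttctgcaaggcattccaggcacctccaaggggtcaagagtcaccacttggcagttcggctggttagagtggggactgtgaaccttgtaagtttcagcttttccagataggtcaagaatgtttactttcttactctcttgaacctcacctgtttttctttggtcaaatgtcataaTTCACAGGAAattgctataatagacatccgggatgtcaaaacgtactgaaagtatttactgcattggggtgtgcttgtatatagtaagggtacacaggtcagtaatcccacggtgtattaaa
The pattern reads the same on both strands, so the search covered both. It was present in 2 of 8 windows of the list, in 3 of the 11 windows found for the 15 largest rises (Retnlg, Awat1 and Cd200r4), in 6.13% of the windows of all genes that rose, in 7.13% of those of genes that fell, in 6.24% of those of all genes tested and in 6.95% of all 32851 windows. A match describes letters only, and binding was not measured.

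Genes of alternative macrophage activation rose and did not fall. Of 20 genes 8 rose and none fell, 40% in all against 17.6% of all genes, and 12 did not pass (median 0.38). Alox15, the lipoxygenase that interleukin 4 and interleukin 13 induce in macrophages and that eosinophils also express, was at 8.92, 9.93, 9.84 and 9.15 on the saline arrays and 11.16, 10.84, 11.38 and 11.21 on the HDM arrays. Saline 2 and 3 stood above saline 1 and 4, but below every HDM array, and the change was 1.68 ± 0.21 (SE, adjusted p = 0.000161). Ccl17, the chemokine that draws CCR4-bearing T helper 2 cells, was at 9.57, 10.30, 10.57 and 9.97 on the saline arrays and 11.25, 11.08, 10.66 and 11.17 on the HDM arrays and rose by 0.94 ± 0.18 (SE, adjusted p = 0.0036). Mmp12, the macrophage elastase, rose by 1.51 ± 0.40 (SE, adjusted p = 0.0178) with overlapping groups, since saline 2 at 11.59 stood above HDM 1 and HDM 2, and its call ended without WT saline 1 (1.12).

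The scavenger receptor Msr1 (0.80), the lipid receptor Trem2 (0.47) and the signalling inhibitor Socs2 (0.29) also rose in this list. The call of Msr1 ended without WT HDM 3 (0.63), WT HDM 4 (0.65), WT saline 2 (0.83), WT saline 3 (0.72) or WT saline 4 (0.80), that of Trem2 without WT HDM 3 (0.35) or WT HDM 4 (0.38), and that of Socs2 without WT HDM 2 (0.21), WT HDM 4 (0.24), WT saline 1 (0.27), WT saline 2 (0.29), WT saline 3 (0.28) or WT saline 4 (0.30). Genes often read as the core of the programme did not pass: Arg1 (0.30), arginase of the liver type, Mrc1 (0.28), the mannose receptor, Clec10a (0.18), a galactose lectin, Pdcd1lg2 (0.30), a ligand of PD-1, and Ccl24 (-0.66), an eotaxin. The ribonuclease Rnase2a (1.43) and the lectin Cd209a (1.12) had large changes that did not pass either (SE 0.49 and 0.47, adjusted p = 0.0536 and 0.103), and both belong to families of near-identical genes.

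Genes shared by osteoclasts and fusing macrophages rose unevenly over the HDM arrays. Of 13 measured 4 rose and none fell, 30.8% in all against 17.6% of all genes. Atp6v0d2, a subunit of the proton pump of lysosomes and osteoclasts, was at 11.07, 11.67, 11.24 and 10.81 on the saline arrays and 12.04, 12.11, 12.99 and 13.20 on the HDM arrays, and rose by 1.39 ± 0.23 (SE, adjusted p = 0.00103). Gpnmb, a glycoprotein of lipid-laden macrophages, was at 10.53, 11.75, 10.86 and 10.66 on the saline arrays and 11.31, 11.35, 13.38 and 12.95 on the HDM arrays. Ctsk, the collagen-cutting cathepsin K, was at 10.35, 10.99, 10.29 and 10.16 on the saline arrays and 11.16, 10.64, 12.50 and 12.34 on the HDM arrays. In both, HDM 3 and HDM 4 stood more than 1 unit above the other HDM arrays, and saline 2 reached into the HDM range. Gpnmb rose by 1.30 ± 0.37 (SE, adjusted p = 0.0264) and its call ended without WT HDM 3 (0.92), WT HDM 4 (1.07), WT saline 1 (1.16), WT saline 3 (1.27) or WT saline 4 (1.20). Ctsk rose by 1.21 ± 0.32 (SE, adjusted p = 0.0184) and its call ended without WT HDM 4 (0.99). Dcstamp, a receptor needed for macrophage fusion, rose by 0.81, a call that ended without WT HDM 2 (0.76) or WT saline 4 (0.64), whereas its partner Ocstamp (-0.17), the osteoclast phosphatase Acp5 (0.32) and the gelatinase Mmp9 (-0.10) did not pass.

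Surface genes of lung macrophages rose as well. Among 14 measured alveolar macrophage genes 5 rose and 1 fell (42.9% in all), and among 19 genes of interstitial macrophages and monocytes 6 rose and 1 fell (36.8%). Of all genes 17.6% passed. Cd200r1, the inhibitory receptor for CD200, was at 8.0, 8.26, 8.05 and 7.93 on the saline arrays and 9.08, 8.95, 9.34 and 9.60 on the HDM arrays, and its relative Cd200r4 at 7.73, 7.97, 7.75 and 7.74 on the saline arrays and 8.61, 8.58, 9.33 and 9.98 on the HDM arrays. Neither gene overlapped between groups, and the changes were 1.19 ± 0.14 (SE, adjusted p = 0.000161) and 1.33 ± 0.25 (SE, adjusted p = 0.00283). Itgax, the integrin CD11c of macrophages and dendritic cells, was at 9.75, 10.51, 10.42 and 9.98 on the saline arrays and 11.09, 10.67, 11.76 and 11.79 on the HDM arrays and rose by 1.16 ± 0.22 (SE, adjusted p = 0.00291). HDM 3 and HDM 4 were the highest in all 3 genes. Pparg, the nuclear receptor that forms alveolar macrophages, rose by 0.52, the lysosomal protease Ctsd by 0.72, the macrophage protein Adgre1 by 0.70, the integrin Itgam (CD11b) by 0.69, the complement subunit C1qb by 0.72 and the monocyte chemokine receptor Ccr2 by 0.55. Each of these 6 was without overlap and kept its call whichever array was left out.

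Fabp4, a fatty acid carrier, rose by 0.62, a call that ended without WT HDM 4 (0.48). Ms4a7, a membrane protein of macrophages, rose by 0.90, a call that ended without WT HDM 3 (0.54), WT HDM 4 (0.83), WT saline 1 (0.89), WT saline 3 (0.78) or WT saline 4 (0.92). Siglecf (0.25), Marco (-0.08) and Car4 (-0.07), taken here as markers of resident alveolar macrophages, did not pass. Their summed level was 13.27 to 13.43 on saline and 13.15 to 13.46 on HDM arrays. Mean levels ran from 8.39 for the dimmest to 13.14 for the brightest, Car4. The sum therefore mostly follows Car4 and says little of the others. The falls were Treml4 (-0.42), a receptor of patrolling monocytes, and Krt19 (-0.57), a keratin that alveolar macrophages share with epithelium.

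Of 15 eosinophil genes 4 rose (Ccr3, Il5ra, Adgre4 and Alox15) and none fell, 26.7% in all against 17.6% of all genes. Ccr3, the eotaxin receptor, was at 8.20, 8.69, 8.44 and 8.11 on the saline arrays and 10.45, 9.71, 10.31 and 10.10 on the HDM arrays. The groups were more than 1 unit apart, and Ccr3 rose by 1.78 ± 0.18 (SE, adjusted p = 4.45e-05). Il5ra, the chain that binds interleukin 5 in the receptor that eosinophils depend on, was at 7.72, 7.94, 7.64 and 7.69 on the saline arrays and 8.33, 8.57, 9.50 and 9.77 on the HDM arrays, with HDM 3 and HDM 4 about 1 unit above the other HDM arrays, and rose by 1.30 ± 0.24 (SE, adjusted p = 0.00255). Adgre4, an adhesion receptor of myeloid cells, rose by 0.50. The granule proteins Epx (-0.08), Prg2 (0.03) and Prg3 (-0.13), made mainly in bone marrow precursors, and the lectin Siglecf did not pass. The median change of the list was 0.07.

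The chemokines that bring in these cells rose in part. Of 15 type 2 chemokines and receptors 6 rose and none fell, 40% in all against 17.6% of all genes. Ccl11, eotaxin 1 and the ligand of CCR3, was at 8.87, 9.58, 9.44 and 9.41 on the saline arrays and 9.85, 10.10, 10.81 and 10.56 on the HDM arrays, without overlap, and rose by 1.01 ± 0.19 (SE, adjusted p = 0.00272). Ccl6, a macrophage chemokine of the mouse, was at 11.95, 12.41, 12.04 and 11.75 on the saline arrays and 12.90, 12.66, 13.09 and 13.36 on the HDM arrays and rose by 0.97 ± 0.15 (SE, adjusted p = 0.000605). Its relative Ccl9 rose by 0.68, a call that ended without WT HDM 4 (0.55) or WT saline 1 (0.53). The second eotaxin Ccl24 (7.95, 9.07, 9.26 and 8.03 with saline, 7.80, 7.88, 8.21 and 7.76 with HDM) did not pass, and neither did Ccl22 (0.29), Ccl8 (0.18), Ccl2 (-0.07), Ccl7 (0.00) or the T helper 2 receptors Ccr4 (-0.20) and Ccr8 (-0.03). Ccl3, a chemokine of activated macrophages, rose by 1.42 ± 0.38 (SE, adjusted p = 0.0185) and its call ended without WT HDM 4 (1.07) or WT saline 1 (1.29).

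Mast cell proteases varied among the HDM arrays. Of 19 mast cell and basophil genes only the growth factor receptor Kit passed, 5.26% in all against 17.6% of all genes. Kit rose by 0.27, and that call ended without WT HDM 2 (0.28), WT HDM 3 (0.24), WT HDM 4 (0.25), WT saline 1 (0.20) or WT saline 2 (0.25). Cpa3, the carboxypeptidase of mast cells, was at 7.49, 7.95, 7.89 and 7.48 on the saline arrays and 7.63, 7.96, 8.78 and 9.17 on the HDM arrays, and the mucosal protease Mcpt1 at 6.42, 8.74, 8.09 and 7.45 on the saline arrays and 7.24, 6.83, 9.56 and 9.81 on the HDM arrays. The highest values were those of HDM 3 and HDM 4, while HDM 1 and HDM 2 overlapped or nearly met the saline arrays, and saline 2 was the highest of its group. Neither passed (0.69, SE 0.28, adjusted p = 0.0965, and 0.69, SE 0.61, adjusted p = 0.425), and nor did Mcpt2 (1.11). The IgE receptor chains Fcer1a (0.04) and Ms4a2 (0.11) did not pass either.

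Against these rises stood falls of chemokines for neutrophils and lymphocytes. Of 26 genes in that list 6 fell and 1 (Ccl3) rose, 26.9% in all against 17.6% of all genes. Cxcl5, the neutrophil attractant of alveolar epithelium and platelets, was at 9.12, 8.74, 8.85 and 9.07 on the saline arrays and 7.56, 7.25, 7.34 and 7.45 on the HDM arrays. No HDM array came within 1 unit of a saline array, and Cxcl5 fell by 1.55 ± 0.12 (SE, adjusted p = 3.24e-06). Ccl20, the epithelial ligand of CCR6 on dendritic cells and T helper 17 cells, was at 9.96, 10.01, 9.68 and 10.31 on the saline arrays and 9.29, 8.71, 9.10 and 9.0 on the HDM arrays, and fell by 0.96 ± 0.12 (SE, adjusted p = 0.000168). Its receptor Ccr6 fell by 0.44, a call that ended without WT HDM 2 (-0.31), WT HDM 4 (-0.40), WT saline 1 (-0.42), WT saline 2 (-0.40) or WT saline 4 (-0.45). Ccl28, a mucosal chemokine, fell by 0.46 ± 0.10 (SE, adjusted p = 0.00521). The neutrophil ligands Cxcl1 (-0.11), Cxcl2 (0.56) and Cxcl3 (0.05), the platelet chemokine Ppbp (-0.96), and the interferon-induced Cxcl9 (-0.03) and Cxcl10 (-0.26) did not pass.

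Neutrophil genes fell with them, by less. Of 21 measured 9 fell and 1 rose, 47.6% in all against 17.6% of all genes (median of the list -0.27). The rise was that of Retnlg, which neutrophils also express. After quantile normalization 5 fell. S100a8, a calcium-binding alarm protein that fills neutrophil cytosol, was at 8.22, 7.86, 8.24 and 8.36 on the saline arrays and 7.68, 7.72, 7.46 and 7.76 on the HDM arrays and fell by 0.51 ± 0.09 (SE, adjusted p = 0.00257). Il1b, the cytokine interleukin 1 beta, fell by 0.61 ± 0.13 (SE, adjusted p = 0.00606), and Ifitm6, a membrane protein of myeloid cells, by 0.70 ± 0.13 (SE, adjusted p = 0.00257). None of these 3 overlapped between groups. The partner S100a9 fell by 0.27 with overlap, and the call ended without WT HDM 2 (-0.24), WT saline 1 (-0.21) or WT saline 3 (-0.26). Ly6g fell by 0.26 (call ended without WT HDM 2 (-0.23), WT HDM 4 (-0.22), WT saline 1 (-0.26) or WT saline 4 (-0.23)) and the receptor Trem1 by 0.54 (call ended without WT saline 1 (-0.45)). The granule enzymes Mpo (-0.08) and Elane (-0.13) and the receptors Cxcr2 (-0.35) and Csf3r (-0.32) did not pass. The summed level of S100a8, S100a9 and Ly6g was 9.52 to 9.82 on the saline and 9.33 to 9.43 on the HDM arrays.

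The largest fall of all was in lymphoid homing. Glycam1, a mucin-like ligand of L-selectin made by high endothelial venules, was at 10.84, 11.51, 10.23 and 10.30 on the saline arrays and 8.60, 7.74, 8.4 and 8.65 on the HDM arrays. The highest HDM value lay more than 1.5 below the lowest saline value, and Glycam1 fell by 2.37 ± 0.26 (SE, adjusted p = 7.88e-05). Ccl19, a ligand of CCR7 that guides naive T cells and dendritic cells, was at 10.73, 11.12, 10.59 and 10.69 on the saline arrays and 10.05, 9.28, 9.73 and 9.69 on the HDM arrays, and fell by 1.09 ± 0.14 (SE, adjusted p = 0.000198). The other probe sets of Ccl19 fell by 0.95 to 1.15. Cxcl13, the ligand of CXCR5 that gathers B cells into follicles, was at 12.42, 12.48, 12.04 and 12.17 on the saline arrays and 11.30, 10.39, 11.56 and 11.65 on the HDM arrays, and fell by 1.05 ± 0.25 (SE, adjusted p = 0.0103), the HDM 2 array being the lowest. Cr2, the complement receptor of follicular B cells and follicular dendritic cells, fell by 0.82 ± 0.22 (SE, adjusted p = 0.0197), and its call ended without WT HDM 2 (-0.56) or WT saline 2 (-0.76). Emcn, an endothelial sialomucin, fell by 0.34 ± 0.07 (SE, adjusted p = 0.00407). In the list 5 of 16 measured genes fell and 1 rose, 37.5% in all against 17.6% of all genes. The adhesion molecules Vcam1 (-0.14), Icam1 (-0.06) and Madcam1 (-0.19), the venule sulfotransferase Chst4 (-0.13), and the lymphoid cytokine Ltb (-0.27) did not pass. The remaining fall was that of the lymphoid cytokine Lta, by 0.25, and the rise that of the sulfotransferase Chst2, by 0.28. The call of Lta ended without WT HDM 2 (-0.18), WT HDM 4 (-0.23), WT saline 1 (-0.26), WT saline 2 (-0.20), WT saline 3 (-0.27) or WT saline 4 (-0.26) and that of Chst2 without WT HDM 2 (0.23), WT HDM 3 (0.28), WT HDM 4 (0.28), WT saline 1 (0.24), WT saline 2 (0.31), WT saline 3 (0.28) or WT saline 4 (0.31). Of 19 B cell and plasma cell genes Cr2 was the only one that passed, 5.26% in all against 17.6% of all genes. The median change of this list was 0.09, with 12 changes above 0 and 7 below. Cd79a (-0.32), Ms4a1 (-0.43), Pax5 (-0.37) and Jchain (0.37) did not pass.

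The cytokines that define the type 2 response did not pass themselves. Of 21 type 2 and alarm cytokines and receptors 3 rose and 2 fell, 23.8% in all against 17.6% of all genes. Il4 (0.20), Il5 (0.18), Il13 (-0.07) and Il9 (-0.17), the products of T helper 2 cells and group 2 innate lymphoid cells, did not pass, nor did Il4ra (-0.17), Il13ra1 (-0.08) or the decoy receptor Il13ra2 (0.01). Il33, the alarm cytokine of alveolar type 2 cells, rose by 0.49 ± 0.12 (SE, adjusted p = 0.0151), and its call ended without WT HDM 4 (0.43), whereas Tslp (-0.07) did not pass. Il25 fell by 0.22 and Stat6 rose by 0.18. The call of Il25 ended without WT HDM 2 (-0.17), WT HDM 4 (-0.20), WT saline 1 (-0.22), WT saline 2 (-0.20) or WT saline 3 (-0.23) and that of Stat6 without WT HDM 1 (0.17), WT HDM 2 (0.17), WT HDM 4 (0.18), WT saline 1 (0.13), WT saline 2 (0.17) or WT saline 3 (0.20). Postn, periostin, a matrix protein that epithelium makes in human asthma, fell by 0.25 in these lungs, a call that ended without WT HDM 1 (-0.21), WT HDM 3 (-0.23), WT HDM 4 (-0.26), WT saline 1 (-0.23), WT saline 3 (-0.25) or WT saline 4 (-0.22).

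Interleukin 1 family genes moved in both directions. Il1f9 (Il36g), an epithelial cytokine, was at 8.31, 8.20, 8.73 and 8.57 on the saline arrays and 7.74, 7.67, 7.45 and 7.87 on the HDM arrays, and fell by 0.77 ± 0.11 (SE, adjusted p = 0.000502). Il1a, interleukin 1 alpha, was at 8.91, 8.96, 8.74 and 8.75 on the saline arrays and 9.36, 9.06, 9.83 and 10.47 on the HDM arrays, and the receptor antagonist Il1rn at 10.14, 10.26, 10.17 and 9.87 on the saline arrays and 10.55, 10.26, 11.70 and 11.38 on the HDM arrays. HDM 3 and HDM 4 were high in both, and the changes were 0.84 ± 0.23 (SE, adjusted p = 0.0217) and 0.86 ± 0.27 (SE, adjusted p = 0.0375). The call of Il1a ended without WT HDM 4 (0.58) or WT saline 3 (0.81), that of Il1rn without WT HDM 3 (0.62), WT HDM 4 (0.73), WT saline 1 (0.87), WT saline 2 (0.91), WT saline 3 (0.88) or WT saline 4 (0.78). The subunits of interleukin 12, Il12a (-0.27) and Il12b (-0.21), fell. The call of Il12b ended without WT HDM 2 (-0.14), WT HDM 4 (-0.22), WT saline 1 (-0.18) or WT saline 2 (-0.21). Il17a (0.00), Ifng (-0.03), Il6 (-0.06) and Tnf (-0.20) did not pass. Of 19 interferon-stimulated genes none passed, against 17.6% of all genes, with the largest changes in Irf7 (-0.50), Oasl2 (-0.46) and Ifit3 (-0.42).

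T cell genes rose modestly. Of 25 genes 6 rose and 2 fell, 32% in all against 17.6% of all genes. Havcr2 (TIM-3), a checkpoint receptor of T cells and macrophages, was at 9.30, 9.53, 9.50 and 9.11 on the saline arrays and 10.01, 10.03, 10.18 and 10.61 on the HDM arrays, and rose by 0.84 ± 0.15 (SE, adjusted p = 0.00193). Il7r, the interleukin 7 receptor of lymphocytes, rose by 0.68 ± 0.17 (SE, adjusted p = 0.0131) with overlap. Maf, a transcription factor of T helper 2 cells, rose by 0.31 ± 0.06 (SE, adjusted p = 0.00278) and Ikzf2 (Helios), a factor of regulatory T cells, by 0.30 ± 0.06 (SE, adjusted p = 0.00396). Foxp3, the master regulator of regulatory T cells, rose by 0.20 and Cd4 by 0.36. The call of Foxp3 ended without WT HDM 1 (0.19), WT HDM 4 (0.17), WT saline 1 (0.17), WT saline 3 (0.20) or WT saline 4 (0.21) and that of Cd4 without WT HDM 3 (0.32), WT HDM 4 (0.33), WT saline 1 (0.34) or WT saline 3 (0.35). The T cell receptor subunits Cd3e (-0.10) and Cd3g (0.22) and the T helper 2 factor Gata3 (0.25) did not pass. Cd8a fell by 0.34 (call ended without WT HDM 2 (-0.33), WT HDM 4 (-0.32) or WT saline 3 (-0.24)), and Lat, an adaptor of the T cell receptor, by 0.25 ± 0.05 (SE, adjusted p = 0.00634).

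Among cytotoxic lymphocyte genes the calls were falls. Of 20 genes 4 fell and none rose, 20% in all against 17.6% of all genes. After quantile normalization 4 fell and 1 rose, and without WT saline 2 and 3 only 1 fell. Nkg7, a granule membrane protein, was at 10.32, 10.26, 10.78 and 10.89 on the saline arrays and 9.98, 9.89, 9.98 and 9.91 on the HDM arrays, and fell by 0.62 ± 0.16 (SE, adjusted p = 0.0151). The sphingosine receptor S1pr5 fell by 0.40 ± 0.08 (SE, adjusted p = 0.0037) and perforin, Prf1, by 0.34 ± 0.08 (SE, adjusted p = 0.00909). The protease granzyme A, Gzma, fell by 0.75 ± 0.23 (SE, adjusted p = 0.0328), over saline values from 9.03 to 10.24, and its call ended without WT HDM 2 (-0.73), WT HDM 3 (-0.72), WT HDM 4 (-0.79), WT saline 2 (-0.76), WT saline 3 (-0.72) or WT saline 4 (-0.55). The summed level of Ncr1, Klrb1c and Gzma was 9.83 to 10.88 on the saline and 9.64 to 9.89 on the HDM arrays, and Ncr1 (-0.46) and Klrb1c (-0.19) did not pass. The immunoproteasome subunit Psmb10 was at 10.41, 10.33, 10.47 and 10.54 on the saline arrays and 9.98, 9.66, 9.56 and 9.71 on the HDM arrays and fell by 0.71 ± 0.09 (SE, adjusted p = 0.000168).

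Of 23 dendritic cell genes 4 rose and 1 fell, 21.7% in all against 17.6% of all genes. Cd209d, a C-type lectin, was at 8.66, 9.26, 9.41 and 8.47 on the saline arrays and 10.00, 9.73, 9.58 and 9.97 on the HDM arrays, and rose by 0.87 ± 0.20 (SE, adjusted p = 0.00831). Mgl2, a lectin of type 2 conventional dendritic cells and macrophages, rose by 0.57 ± 0.14 (SE, adjusted p = 0.0145), and Clec9a, the receptor for dead cells on type 1 conventional dendritic cells, by 0.48 ± 0.08 (SE, adjusted p = 0.00152). The saline arrays 2 and 3 were the highest of their group for Cd209d and Mgl2, but not for Clec9a. The maturation genes Ccr7 (-0.09), Fscn1 (-0.02) and Cd83 (0.08) did not pass. Among MHC class II and costimulation genes 2 of 14 passed (14.3%, against 17.6% of all genes). Both rose, the invariant chain Cd74 by 0.28 and the costimulator Cd80 by 0.57. The call of Cd74 ended without WT HDM 3 (0.27), WT HDM 4 (0.24), WT saline 1 (0.23), WT saline 3 (0.28) or WT saline 4 (0.29) and that of Cd80 without WT HDM 3 (0.45), WT HDM 4 (0.46), WT saline 1 (0.56), WT saline 2 (0.61), WT saline 3 (0.59) or WT saline 4 (0.53), and the chains H2-Aa (-0.02), H2-Ab1 (-0.05) and H2-Eb1 (0.08) did not pass.

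Innate sensors, some of them receptors for mite components, rose in part. Of 22 genes in this list 5 rose and 2 fell, 31.8% in all against 17.6% of all genes. Ly96 (MD-2), the lipid-binding partner of TLR4 that the mite allergen Der p 2 is known to imitate, was at 10.23, 10.63, 10.59 and 10.53 on the saline arrays and 11.06, 11.09, 11.32 and 11.46 on the HDM arrays. It rose by 0.74 ± 0.10 (SE, adjusted p = 0.0002), and TLR4 itself (Tlr4) by 0.52 ± 0.09 (SE, adjusted p = 0.00143), both without overlap. Clec7a, the beta-glucan receptor dectin-1, was at 10.33, 10.57, 10.26 and 10.31 on the saline arrays and 11.10, 10.95, 11.58 and 11.46 on the HDM arrays and rose by 0.91 ± 0.17 (SE, adjusted p = 0.00313). The endosomal RNA sensors Tlr7 and Tlr3 rose by 0.95 ± 0.18 (SE, adjusted p = 0.00277) and 0.45 ± 0.08 (SE, adjusted p = 0.00272). The adaptor Myd88 fell by 0.33 ± 0.07 (SE, adjusted p = 0.00667). Cd14 (-0.01), Tlr2 (-0.08), Nlrp3 (-0.06) and the lectin Clec4n (0.30) (dectin-2) did not pass.

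Lipid mediator genes followed. Of 26 leukotriene and prostaglandin genes 7 rose and 1 fell, 30.8% in all against 17.6% of all genes, Alox15 with the largest change. Tbxas1, thromboxane synthase, was at 9.12, 9.29, 9.34 and 9.11 on the saline arrays and 10.03, 9.79, 9.89 and 10.18 on the HDM arrays and rose by 0.76 ± 0.13 (SE, adjusted p = 0.00177). Ptges, which makes prostaglandin E2, rose by 0.53 ± 0.11 (SE, adjusted p = 0.00484), whereas the inducible cyclooxygenase Ptgs2, which supplies its substrate, fell by 0.49 ± 0.11 (SE, adjusted p = 0.00811), from 10.92, 11.12, 11.13 and 10.86 with saline to 10.38, 10.78, 10.22 and 10.73 with HDM. Alox5, the first enzyme of leukotriene synthesis, rose by 0.43 and Cysltr1, the receptor of cysteinyl leukotrienes, by 0.42. The call of Alox5 ended without WT HDM 1 (0.38), WT HDM 3 (0.41), WT saline 1 (0.43), WT saline 3 (0.44) or WT saline 4 (0.40) and that of Cysltr1 without WT HDM 2 (0.40), WT HDM 4 (0.40), WT saline 3 (0.40) or WT saline 4 (0.33). Ltc4s (0.00), Alox5ap (0.10) and Hpgds (0.29) did not pass. Cyp4f18, which inactivates leukotriene B4 in myeloid cells of the mouse, rose by 0.89 ± 0.19 (SE, adjusted p = 0.00524).

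Amino acid enzymes gave the second largest rise. Hal, histidine ammonia-lyase, which turns histidine into urocanate and is known from liver and skin, was at 8.14, 9.39, 9.31 and 7.88 on the saline arrays and 10.78, 10.55, 11.79 and 11.09 on the HDM arrays. Saline 2 and 3 were more than 1 unit above saline 1 and 4, all HDM arrays were higher still, and Hal rose by 2.37 ± 0.29 (SE, adjusted p = 0.000161). The next enzymes of the histidine pathway, Uroc1 (-0.17), Amdhd1 (-0.10) and Ftcd (-0.20), did not pass, and nor did histidine decarboxylase (Hdc (0.14)), which makes histamine. Of the arginine genes, the transporter Slc7a2, which supplies arginase and nitric oxide synthase in activated macrophages, rose by 0.80 ± 0.15 (SE, adjusted p = 0.0031), whereas the transporter Slc7a1 fell by 0.55 ± 0.10 (SE, adjusted p = 0.00246). Slc7a1 was at 10.51, 10.60, 10.90 and 10.61 on the saline arrays and 10.19, 9.93, 10.26 and 10.06 on the HDM arrays, without overlap. Ddah2, which breaks down an inhibitor of nitric oxide synthase, fell by 0.50 ± 0.06 (SE, adjusted p = 0.000161). The second arginase, Arg2, rose by 0.42, a call that ended without WT HDM 2 (0.37), WT HDM 3 (0.44), WT HDM 4 (0.34), WT saline 1 (0.42), WT saline 2 (0.48), WT saline 3 (0.42) or WT saline 4 (0.37), and Nos2 (-0.17) did not pass. In the list 3 of 17 rose and 2 fell, 29.4% in all against 17.6% of all genes.

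Further genes among the largest rises belonged to none of these groups. Inhba, the subunit of activin A, a growth factor of the transforming growth factor beta family, was at 8.64, 8.83, 8.56 and 8.4 on the saline arrays and 9.10, 9.72, 10.63 and 11.39 on the HDM arrays. Awat1, an enzyme of wax ester synthesis, was at 8.09, 8.51, 8.36 and 8.05 on the saline arrays and 9.02, 9.08, 9.90 and 11.47 on the HDM arrays. In both the HDM arrays were far apart, HDM 4 being the highest, and none reached down to the saline arrays. The changes were 1.60 ± 0.33 (SE, adjusted p = 0.00439) and 1.62 ± 0.37 (SE, adjusted p = 0.009). Gapt, a membrane adaptor of blood cells, was at 8.90, 9.48, 9.55 and 9.13 on the saline arrays and 10.86, 10.44, 10.84 and 10.90 on the HDM arrays and rose by 1.5 ± 0.15 (SE, adjusted p = 3.54e-05). Tnip3, an inhibitor of NF-kappaB signalling, was at 8.47, 8.94, 8.66 and 8.48 on the saline arrays and 9.74, 9.76, 10.23 and 10.20 on the HDM arrays and rose by 1.34 ± 0.16 (SE, adjusted p = 0.000161). The HDM arrays of Gapt lay within 0.46 of each other.

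Genes of the epithelial lining changed in single members. Sftpd, surfactant protein D, a lectin that binds mite and fungal sugars, was at 12.41, 12.37, 12.31 and 12.48 on the saline arrays and 12.89, 12.90, 13.02 and 13.10 on the HDM arrays, and rose by 0.59 ± 0.08 (SE, adjusted p = 0.000439). Lamp3, a lamellar body protein of alveolar type 2 cells, was at 12.15, 12.09, 12.05 and 12.01 on the saline arrays and 12.39, 12.57, 12.44 and 12.70 on the HDM arrays, and rose by 0.45 ± 0.07 (SE, adjusted p = 0.000533). The saline arrays of Sftpd lay within 0.17 of each other and those of Lamp3 within 0.14, and neither gene overlapped. Surfactant proteins that line the air space, Sftpc (0.01), Sftpb (0.17) and Sftpa1 (0.06), and the lipid transporter Abca3 (-0.01) did not pass. Of 17 type 2 cell genes 5 rose and 1 fell, 35.3% in all against 17.6% of all genes. Alveolar type 1 cells had 3 falls and no rise among 15 genes, 20% in all against 17.6% of all genes. The water channel Aqp5 fell by 0.54 ± 0.11 (SE, adjusted p = 0.00359) and Rtkn2 by 0.52 ± 0.09 (SE, adjusted p = 0.0026), both without overlap. The type 1 markers Ager (-0.14) and Hopx (-0.10) did not pass, and the call of Pdpn (-0.30) ended without WT HDM 2 (-0.30), WT HDM 4 (-0.20), WT saline 1 (-0.26), WT saline 2 (-0.32) or WT saline 4 (-0.24).

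Club cell and secreted airway genes had 3 rises and 3 falls among 18, 33.3% in all against 17.6% of all genes. Chad, chondroadherin, a leucine-rich matrix protein, was at 11.23, 11.14, 11.05 and 11.29 on the saline arrays and 11.88, 12.22, 11.55 and 12.07 on the HDM arrays, and rose by 0.75 ± 0.13 (SE, adjusted p = 0.00153). Hp, haptoglobin, was at 12.21, 12.15, 12.22 and 12.45 on the saline arrays and 11.59, 11.88, 11.40 and 11.68 on the HDM arrays, and fell by 0.62 ± 0.13 (SE, adjusted p = 0.0041). Scgb1a1, the main secreted protein of club cells, rose by 0.68 ± 0.23 (SE, adjusted p = 0.0472). Without WT saline 1 its change was more than 1.5 times smaller, and its call ended without WT HDM 2 (0.73), WT HDM 3 (0.67), WT HDM 4 (0.55), WT saline 1 (0.45), WT saline 2 (0.77) or WT saline 3 (0.68). Scgb1c1 fell by 0.59 ± 0.19 (SE, adjusted p = 0.0449) with overlapping groups. Bpifb1, a secreted lipid-binding protein, rose by 0.54, and lactoferrin, Ltf, fell by 0.53. The call of Bpifb1 ended without WT HDM 2 (0.47), WT HDM 4 (0.44), WT saline 1 (0.50), WT saline 2 (0.47) or WT saline 3 (0.50) and that of Ltf without WT HDM 2 (-0.49), WT HDM 3 (-0.46), WT saline 1 (-0.51) or WT saline 4 (-0.36). Bpifa1 (0.86), Scgb3a1 (0.12), Scgb3a2 (-0.07) and Cyp2f2 (-0.04) did not pass. Among the largest falls, Bpifa2, a salivary relative of Bpifa1, was at 9.41, 9.33, 9.03 and 8.97 on the saline arrays and 8.26, 7.84, 8.19 and 8.30 on the HDM arrays and fell by 1.03 ± 0.16 (SE, adjusted p = 0.000605). Prss30, a serine protease, fell by 0.82 ± 0.18 (SE, adjusted p = 0.0059), and Gjb2, the gap junction protein connexin 26, by 0.73 ± 0.10 (SE, adjusted p = 0.000384).

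Among 17 ciliated cell genes 2 rose and none fell, 11.8% in all against 17.6% of all genes, and without WT saline 2 and 3 none passed. Sntn, a protein at the tip of cilia, rose by 0.59, a call that ended without WT HDM 2 (0.52), WT HDM 4 (0.44) or WT saline 4 (0.52), and Cfap126 by 0.56, a call that ended without WT HDM 4 (0.46) or WT saline 1 (0.53). Foxj1 (0.10), the master regulator of motile cilia, and Dnah5 (0.10), a dynein heavy chain, did not pass.

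Of 29 measured matrix and remodelling genes 1 rose and 4 fell, 17.2% in all against 17.6% of all genes, and 1 rose and 2 fell after the shift of medians (median -0.04). Fn1, fibronectin, was at 12.53, 12.56, 12.58 and 12.81 on the saline arrays and 13.05, 13.16, 13.04 and 12.87 on the HDM arrays, and rose by 0.41 ± 0.08 (SE, adjusted p = 0.00277). The fibrillar collagens Col1a1 (-0.15), Col1a2 (-0.05) and Col3a1 (-0.11), elastin (Eln (-0.25)), tenascin (Tnc (-0.18)) and the inhibitor Timp1 (0.03) did not pass. Lum, a proteoglycan of collagen fibrils, fell by 0.47, a call that ended without WT saline 4 (-0.42), and the protease Mmp3 by 0.49 ± 0.12 (SE, adjusted p = 0.0132). Adamts9, a metalloproteinase that cuts proteoglycans, fell by 0.66 ± 0.08 (SE, adjusted p = 0.000161), and its other 5 probe sets by 0.37 to 0.54.

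Of 15 smooth muscle genes 2 rose and 1 fell, 20% in all against 17.6% of all genes. Myh11, the myosin heavy chain, rose by 0.35, and Tagln, an actin-binding protein, fell by 0.39. Synpo2 rose by 0.28 ± 0.08 (SE, adjusted p = 0.0218) without overlap. The call of Myh11 ended without WT HDM 2 (0.29) or WT saline 2 (0.27) and that of Tagln without WT HDM 4 (-0.33) or WT saline 1 (-0.31), and Acta2 (0.06), Actg2 (0.07) and Cnn1 (-0.10) did not pass. Of 23 endothelial genes 1 rose and 2 fell, 13% in all against 17.6% of all genes. The rise was that of the clotting factor Vwf (0.31, call ended without WT HDM 2 (0.28), WT saline 1 (0.27) or WT saline 3 (0.28)). Pecam1 (-0.16), Cdh5 (-0.04) and Cldn5 (-0.04) did not pass. Heart muscle had 2 falls of 14 (14.3%) and skeletal muscle 2 of 13 (15.4%), with no rise in either, against 17.6% of all genes that passed.

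Lipid handling is where the receptor of this study belongs. Of 17 measured lipoprotein receptors and ligands 5 rose and none fell, 29.4% in all against 17.6% of all genes. The median change was 0.02, with 9 changes above 0 and 8 below. After quantile normalization 3 rose and 1 fell, and without WT saline 2 and 3 only 1 rose. Lpl, the lipase that anchors lipoproteins at the vessel wall and is a ligand of VLDLR, was at 10.66, 10.71, 10.66 and 10.59 on the saline arrays and 11.05, 11.46, 10.92 and 11.18 on the HDM arrays, and rose by 0.50 ± 0.11 (SE, adjusted p = 0.00556). The receptor Lrp1 rose by 0.24 and Lrp2 by 0.28, the apolipoproteins Apoc1 by 0.43 and Apoe by 0.25. The call of Lrp1 ended without WT saline 1 (0.20), of Lrp2 without WT HDM 3 (0.26), WT HDM 4 (0.27), WT saline 2 (0.28), WT saline 3 (0.28) or WT saline 4 (0.23), of Apoc1 without WT HDM 4 (0.37), and of Apoe without WT HDM 1 (0.26), WT HDM 2 (0.27), WT HDM 3 (0.23), WT HDM 4 (0.24), WT saline 1 (0.19), WT saline 2 (0.24) or WT saline 3 (0.23). The relative of VLDLR that binds apolipoprotein E and reelin, Lrp8 (-0.11), did not pass. Of 15 LXR targets and fatty acid synthesis genes 3 rose and 1 fell, 26.7% in all against 17.6% of all genes. Abcg1, the cholesterol exporter of macrophages and type 2 cells, rose by 0.37 ± 0.08 (SE, adjusted p = 0.00768) and fatty acid synthase, Fasn, by 0.26 ± 0.07 (SE, adjusted p = 0.0138). Of 17 cholesterol synthesis genes 2 fell and none rose, 11.8% in all against 17.6% of all genes. Hsd17b7 fell by 0.54 ± 0.13 (SE, adjusted p = 0.0092).

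Genes of the circadian clock rose, and Arntl fell. The circadian clock is a loop in which BMAL1 (Arntl) with CLOCK drives Per, Cry and the PAR bZIP factors Dbp, Tef and Hlf through E-boxes, and PER and CRY repress them in turn, so that Arntl and Dbp are high at opposite times of day. Of 16 measured genes 8 rose and 1 fell, 56.2% in all against 17.6% of all genes (median 0.30). Dbp was at 9.68, 9.64, 9.45 and 9.64 on the saline arrays and 11.12, 11.15, 10.60 and 11 on the HDM arrays, and rose by 1.37 ± 0.13 (SE, adjusted p = 3.54e-05). Arntl was at 9.38, 9.45, 9.87 and 9.67 on the saline arrays and 8.89, 8.92, 9.17 and 8.99 on the HDM arrays, and fell by 0.60 ± 0.09 (SE, adjusted p = 0.000736). Neither overlapped, and the saline arrays of Dbp lay within 0.23 of each other. Tef was at 9.88, 9.96, 10.03 and 9.96 on the saline arrays and 10.55, 10.89, 10.24 and 10.55 on the HDM arrays and rose by 0.60 ± 0.11 (SE, adjusted p = 0.00247), Per3 by 0.63 ± 0.09 (SE, adjusted p = 0.000502) and Hlf by 0.41 ± 0.09 (SE, adjusted p = 0.00492). Bhlhe41 (DEC2), a repressor at E-boxes, was at 7.98, 8.24, 7.76 and 8.08 on the saline arrays and 9.09, 8.96, 9.42 and 9.86 on the HDM arrays and rose by 1.32 ± 0.16 (SE, adjusted p = 0.000161), and its relative Bhlhe40 (DEC1), which is also a factor of activated lymphocytes and macrophages, by 0.82 ± 0.13 (SE, adjusted p = 0.000956).

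The calls of Per2 (0.41) and Nr1d2 (0.30) rested on single arrays. That of Per2 ended without WT HDM 4 (0.39) or WT saline 1 (0.37), and without WT HDM 2 its change was 0.27, more than 1.5 times smaller. That of Nr1d2 ended without WT HDM 1 (0.32), WT HDM 2 (0.27), WT HDM 4 (0.28), WT saline 1 (0.31), WT saline 2 (0.32), WT saline 3 (0.25) or WT saline 4 (0.32). Per1 (0.29), Nr1d1 (0.15), Ciart (0.30), Cry1 (-0.03), Cry2 (0.09) and Clock (-0.01) did not pass. HDM 2 stood highest and HDM 3 lowest among the HDM arrays in Tef and Per2. The sources used here do not state the hour at which lungs were taken, and its part in these values was not tested.

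Windows of Tef and Bhlhe41 are shown because both genes rose and both hold the E-box CACGTG, the site to which CLOCK and BMAL1 are known to bind. They are RefSeq windows on GRCm38.p6, 250 bases before to 50 bases after the start, 5′ to 3′ on the strand of the gene, with the E-box in capitals. The Tef window, 1 of 2 for the gene, is chr15:81802423-81802722 on the plus strand with the E-box at bases 124 to 129, and the Bhlhe41 window is chr6:145865371-145865670 on the minus strand with the E-box at bases 98 to 103.
Tef: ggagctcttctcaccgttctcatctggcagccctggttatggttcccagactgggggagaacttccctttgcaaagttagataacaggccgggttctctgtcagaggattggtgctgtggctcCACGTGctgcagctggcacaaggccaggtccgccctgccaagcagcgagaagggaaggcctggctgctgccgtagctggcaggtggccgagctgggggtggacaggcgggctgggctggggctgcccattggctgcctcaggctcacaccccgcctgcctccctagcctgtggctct
Bhlhe41: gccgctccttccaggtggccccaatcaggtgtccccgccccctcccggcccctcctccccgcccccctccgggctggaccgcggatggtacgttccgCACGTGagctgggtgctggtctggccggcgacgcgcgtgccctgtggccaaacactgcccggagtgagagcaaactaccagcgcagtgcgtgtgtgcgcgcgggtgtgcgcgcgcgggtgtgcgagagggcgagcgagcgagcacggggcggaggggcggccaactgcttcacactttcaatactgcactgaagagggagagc
The E-box reads the same on both strands. It was present in 6 of 19 windows of the clock list, belonging to 5 of the 14 genes with a window (Tef, Bhlhe41, Ciart, Cry1 and Per1), in 10% of windows of genes that rose, 8.37% of those of genes that fell, 8.24% of those of all genes tested and 7.15% of all windows. Dbp and Per3 had none in their windows, which says only that these letters are not there. The palindrome of TTC and GAA was in none of the 19 clock windows.

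The mean of the clock list, each gene centred and scaled over the 16 arrays, was between -0.42 and -0.28 on the WT saline arrays and 0.60, 1.41, -0.11 and 0.78 on the WT HDM arrays, without overlap. On the 8 KO arrays it lay between -0.73 and 0.23. With this score as a covariate 1110 genes passed in WT (5.57% of all, 493 or 2.47% higher and 617 or 3.09% lower), and the median SE of a change was 1.37 times larger. Under that fit Clca1 changed by 2.72 (adjusted p = 0.0312), Ccr3 by 2.27 (adjusted p = 5.72e-05), Cxcl5 by -1.27 (adjusted p = 0.000648) and Glycam1 by -1.94 (adjusted p = 0.00691). Calls that ended under it include those of Ccl17 (0.83), Cxcl13 (-0.35), Hspa1a (-0.92), Il1b (-0.52), Lpl (0.13) and Tlr4 (0.41). Because the score was higher on every HDM array, score and treatment cannot be fully told apart in WT.

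Stress and housekeeping genes showed a few distinct members. Hspa1a, the inducible heat shock protein, was at 11.20, 11.47, 12.15 and 12.21 on the saline arrays and 10.74, 10.84, 10.80 and 10.95 on the HDM arrays, and fell by 0.93 ± 0.19 (SE, adjusted p = 0.00392). Saline 3 and 4 stood above saline 1 and 2, while the HDM arrays lay within 0.22 of each other. Dnajb1, its co-chaperone, fell by 0.62 ± 0.15 (SE, adjusted p = 0.00987) with overlap, and heme oxygenase, Hmox1, by 0.63, a call that ended without WT HDM 1 (-0.59), WT HDM 2 (-0.56), WT HDM 3 (-0.67), WT HDM 4 (-0.71), WT saline 2 (-0.69), WT saline 3 (-0.46) or WT saline 4 (-0.51). Of 17 immediate early and heat shock genes 2 rose and 2 fell, 23.5% in all against 17.6% of all genes. Of the immediate early genes, which respond within minutes to handling, Fos (-0.01), Jun (0.14) and Atf3 (0.22) did not pass. Egr1 rose by 0.36, a call that ended without WT HDM 4 (0.33) or WT saline 1 (0.27). Junb rose by 0.25 ± 0.07 (SE, adjusted p = 0.0196) with overlapping groups. Of 26 cytochrome P450 and detoxification genes 1 rose (Cyp4f18) and 3 fell, 15.4% in all against 17.6% of all genes. Among the falls was the airway aldehyde dehydrogenase Aldh3a1 (-0.43). After the shift of medians 1 rose and 1 fell.

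Acute phase and complement genes had 4 rises and 2 falls of 22, 27.3% in all against 17.6% of all genes. Itih4, a plasma protease inhibitor, was at 11, 10.98, 10.72 and 10.98 on the saline arrays and 11.73, 11.37, 12.04 and 12.04 on the HDM arrays and rose by 0.88 ± 0.13 (SE, adjusted p = 0.000605). Orm1, the acute phase protein orosomucoid, which has close copies, was at 9.76, 8.86, 9.31 and 9.20 on the saline arrays and 10.60, 9.81, 10.23 and 10.52 on the HDM arrays and rose by 1.01 ± 0.20 (SE, adjusted p = 0.00394), whereas Orm2 (-0.20), Saa3 (0.18) and Lcn2 (0.13) did not pass and Saa2 fell by 0.36 ± 0.08 (SE, adjusted p = 0.0073). C3ar1, the receptor of the complement fragment C3a, rose by 0.83 ± 0.20 (SE, adjusted p = 0.0126). Of 24 endoplasmic reticulum folding and stress genes 2 passed (8.33%, against 17.6% of all genes). Both rose, Ern2 and its relative Ern1 (0.19). The call of Ern1 ended without WT HDM 2 (0.19), WT HDM 3 (0.17), WT HDM 4 (0.18), WT saline 1 (0.15), WT saline 2 (0.18) or WT saline 4 (0.20). The chaperone Hspa5 (-0.19) did not pass. Of 23 respiratory chain subunits 4 fell, by at most 0.28, and none rose, 17.4% in all against 17.6% of all genes. After quantile normalization 6 fell, and after the shift of medians or without WT saline 2 and 3 only 1 did. A subunit outside the list, Cox7a2, was at 11.01, 10.70, 10.69 and 10.72 on the saline arrays and 10.21, 10.12, 9.97 and 9.78 on the HDM arrays and fell by 0.76 ± 0.12 (SE, adjusted p = 0.00104). No gene of 27 of the cell cycle passed, against 17.6% of all genes, Mki67 (0.01) and Top2a (-0.27) included. Of these 27 changes 21 were below 0 (median -0.18, against -0.05 over all genes). In 6 of the 27 the HDM arrays lay wholly below the saline arrays, as in 14.4% of all genes. The smallest p were those of Ccna2 (-0.66, adjusted p = 0.0502) and Pcna (-0.22, adjusted p = 0.0909), both without overlap.

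Arrays of the same group differed in ways that ran through several lists. Relative to the mean of the saline arrays, the mean of the alternative macrophage list was -0.44, 0.37, 0.23 and -0.16 on the saline arrays and 0.45, 0.42, 0.80 and 0.67 on the HDM arrays. Saline 2 and 3 were near the lower HDM arrays. The same 2 arrays were the highest saline arrays in the chitinase-like and resistin-like list (0.35 and 0.17), the eosinophil list (0.23 and 0.10) and the eotaxin list (0.21 and 0.09). In the mucus list they were not both high (0.07 and -0.11). Among the HDM arrays, HDM 3 and HDM 4 were the highest for macrophage fusion (0.73 and 0.51, against 0.20 and 0.07 on HDM 1 and HDM 2) and for mast cells (0.38 and 0.43, against -0.05 and -0.17). HDM 2 was the lowest for B cells (-0.55) and for lymphoid homing (-0.58, against -0.32 to -0.30 on the other HDM arrays).

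**Figure D4:**
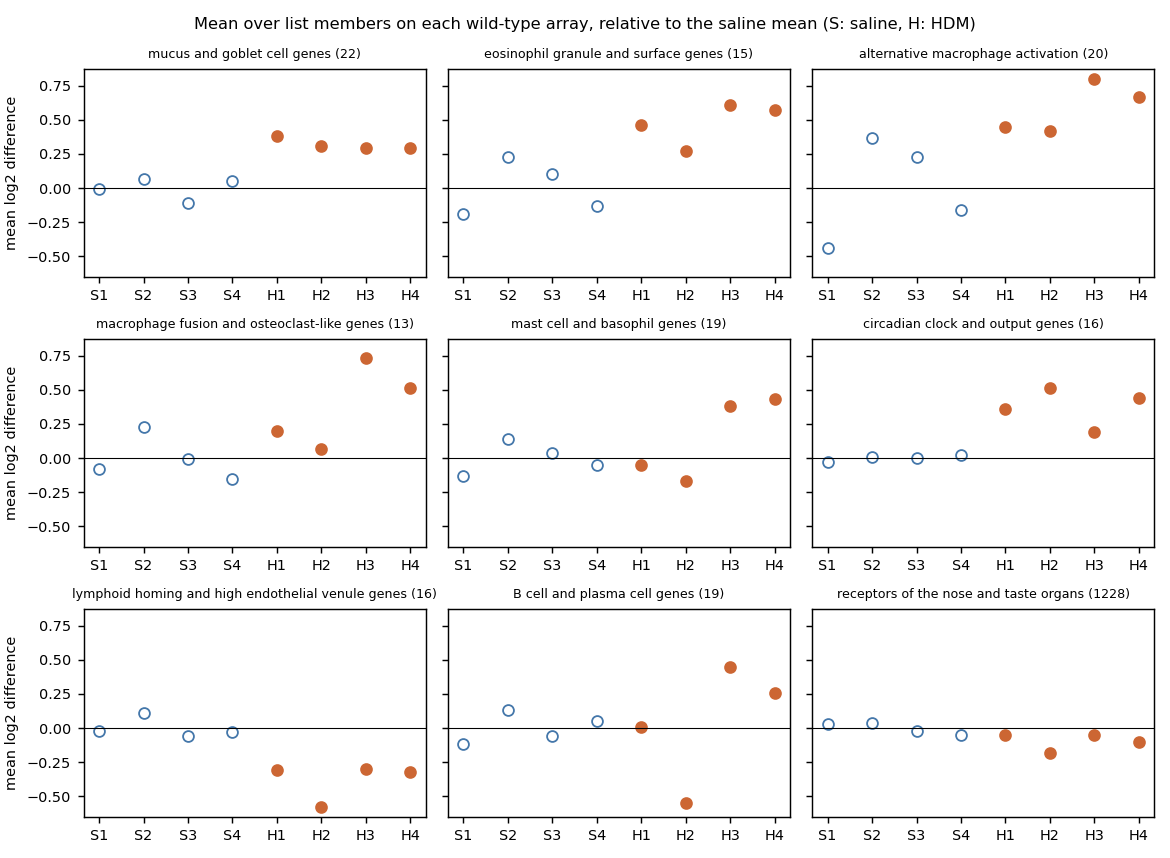
Mean level of 9 gene lists on each of the 8 WT arrays (log2, relative to the mean of the saline arrays), with saline 1 to 4 and HDM 1 to 4 on the horizontal axis. Saline 2 and 3 stand above saline 1 and 4 in the alternative macrophage and eosinophil lists, and HDM 2 is lowest in the B cell and homing lists.

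WT saline 2 and 3 were singled out for their high type 2 genes, so leaving them out had to enlarge the rises of such genes, and those values are given as a description. Clca1 changed by 3.64 (adjusted p = 0.000288), Chil4 by 3.13 (adjusted p = 0.000524), Hal by 3.04 (adjusted p = 1.72e-05) and Mmp12 by 2.25 (adjusted p = 0.00436). The alternative macrophage list then had 7 rises, the eosinophil list 5 and the chitinase-like and resistin-like list 5. Among the falls, Glycam1 was at -2.22 and Cxcl5 at -1.70, both past the threshold, while Cxcl13 (-1.07), Nkg7 (-0.66) and Myd88 (-0.28) no longer passed with 2 saline arrays. No label sets these 2 arrays apart.

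The KO change is the difference between 4 HDM and 4 saline arrays of KO lung. None of them enters the WT means, but both tests use the same estimate of spread from all 16 arrays. In KO 1763 genes passed (8.84%), 989 of them higher (4.96%) and 774 lower (3.88%). The test of whether the KO change differed from the WT change, the interaction, called 160 genes (0.802%), 71 with a higher and 89 with a lower change in KO, and 88 of the 160 had passed in WT. Of all genes, 17.6% had passed in WT. In 115 of the 160 the changes in the genotypes had opposite signs. The interaction is the KO change minus the WT change, so its calls favour large WT changes and opposite signs. Both counts are thus in part set by the selection. The count of interaction calls was 214 after quantile normalization and 12 without WT saline 2 and 3. With 1 array left out it was between 41 (without WT saline 3) and 1019 (without KO HDM 4). Leaving out any array but WT saline 1 (115) moved it by more than 1.5 times.

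For 26 of the 30 largest changes the interaction did not pass, which does not show that the changes were alike. Clca1 changed by 2.64 in WT and 3.38 in KO, Muc5ac by 1.42 and 1.23, Chil3 by 1.26 and 1.35, Glycam1 by -2.37 and -1.88, and Cxcl5 by -1.55 and -1.23. Chil4 changed by 2.23 and 4.22, a difference of 1.99 (SE 0.59, adjusted p = 0.113) that came past the threshold without WT saline 1 or KO HDM 4. Hal rose in WT and changed by -0.11 in KO (adjusted p = 0.863), with an interaction of -2.48 (SE 0.42, adjusted p = 0.0126). Dbp changed by 0.10 in KO (adjusted p = 0.703), with an interaction of -1.27 (SE 0.19, adjusted p = 0.00744). Hspa1a fell in WT and rose by 0.81 in KO (adjusted p = 0.0107), with an interaction of 1.74 (SE 0.26, adjusted p = 0.00775). Psmb10 changed by -0.04 in KO (adjusted p = 0.807), with an interaction of 0.67 (SE 0.13, adjusted p = 0.0247) that ended without WT saline 3, KO saline 3 or 4, KO HDM 1 or 2, or WT HDM 2 or 4.

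Some type 2 genes that did not pass in WT rose in KO, and the difference passed. Ccl24 changed by -0.66 in WT and 2.94 in KO (adjusted p = 0.000261), with an interaction of 3.61 (SE 0.58, adjusted p = 0.01). Rnase2a changed by 1.43 in WT and 5.33 in KO (adjusted p = 5.4e-06), with an interaction of 3.90 (SE 0.70, adjusted p = 0.0182). Arg1 changed by 0.30 in WT and 3.02 in KO (adjusted p = 0.000106), with an interaction of 2.71 (SE 0.54, adjusted p = 0.0289) that ended without WT saline 2 or 3, KO saline 2, 3 or 4, KO HDM 2, or WT HDM 2 or 4. Without WT saline 2 and 3 together the interactions of Ccl24 (3.02), Rnase2a (2.79) and Arg1 (2.13) did not pass. These genes were among those that stood high on WT saline 2 and 3: Ccl24 was at 7.95, 9.07, 9.26 and 8.03 on the WT saline arrays, Rnase2a at 8.54, 11.47, 11.22 and 9.68 and Arg1 at 7.97, 9.41, 8.96 and 8.05. Ccl11 rose in both, by 1.01 and 2.18, and its interaction of 1.17 (SE 0.26, adjusted p = 0.0488) ended without WT saline 2, 3 or 4, KO saline 1, 2, 3 or 4, KO HDM 2 or 3, or WT HDM 1, 2 or 4.

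Genes of epithelium and of other groups differed too. Lamp3 changed by 0.45 in WT and -0.09 in KO, with an interaction of -0.54 (SE 0.10, adjusted p = 0.0173). Sftpd changed by 0.59 and -0.01, and its interaction of -0.59 (SE 0.12, adjusted p = 0.032) ended without WT saline 2 or 3, KO saline 3 or 4, KO HDM 1 or 2, or WT HDM 4. Adamts9 fell in WT and changed by 0.17 in KO (adjusted p = 0.228), with an interaction of 0.82 (SE 0.11, adjusted p = 0.00397). Msln, mesothelin, a surface protein of the pleural lining, fell by 0.47 ± 0.06 (SE, adjusted p = 0.000198) in WT and changed by -1.13 in KO (adjusted p = 8.5e-09), with an interaction of -0.66 (SE 0.09, adjusted p = 0.00371). The protease inhibitor Tfpi2 changed by -0.14 in WT, where it did not pass, and 0.71 in KO, with an interaction of 0.85 (SE 0.10, adjusted p = 0.00371). The lectin Cd209e, one of a family of close copies, changed by 0.28 in WT, where it did not pass, and 2.36 in KO, with an interaction of 2.07 (SE 0.28, adjusted p = 0.00371). Klhl13, an adaptor of a ubiquitin ligase, fell in WT by 0.24, a call that ended without WT HDM 4 (-0.21), and rose in KO by 0.45, with an interaction of 0.69 (SE 0.09, adjusted p = 0.00371). Klhl38 rose by 0.45 ± 0.11 (SE, adjusted p = 0.0114) in WT and changed by -0.62 in KO (adjusted p = 0.00191). Its interaction was -1.07 (SE 0.15, adjusted p = 0.00633). Fxyd4 changed by -0.04 in WT, where it did not pass, and 0.76 in KO, with an interaction of 0.81 (SE 0.12, adjusted p = 0.00761).

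**Figure D5:**
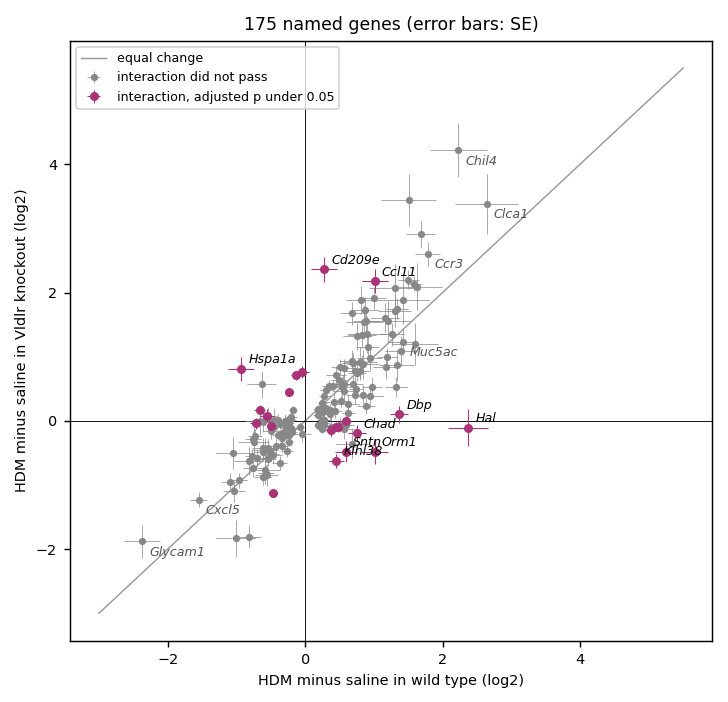
Change after HDM in WT lung (horizontal axis) against the change in KO lung (vertical axis), both log2, for 175 named genes, with the line of equal change. Genes whose interaction passed are marked, among them Hal and Dbp, which rose in WT and lie near 0 in KO.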

How the data were processed

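Whole-lung RNA of 16 mouse samples (4 a group) was measured on Affymetrix whole-transcript arrays. The authors deposited log2 values that, per the submitters' processing notes, were made with Affymetrix Expression Console by RMA, a method that corrects background, equalizes the distribution of arrays and summarizes each probe set. The sources used here name no version and no genome build. Of 35556 probe sets, 21789 had 1 symbol in the platform annotation, 1621 several and 12146 none, and only the first were used. Of these 21698 matched a gene ID in RefSeq, and 91 kept the file's name. Where a gene had several (999 genes), the one brightest on average across all 16 arrays stood for it, which left 19938 genes. Arrays give no read depth, and their number limits the precision. Group means of all 4 groups were fitted with limma 3.58.1 (R 4.3.3, 12 residual degrees of freedom, eBayes), two-sided, with Benjamini-Hochberg adjustment over all genes and a threshold of 0.05. The fit was tested on simulated data.

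The text names the 15 largest rises and falls without overlap, members of 46 gene lists by size of change or to account for members that did not pass, and the 8 genes with the smallest interaction p. Genes, lists and rule were chosen with earlier results of these data known. Alternatives were the scaling, a filter on dim genes, the variance model, array weights, the probe set rule, the replicate block, the arrays in the fit, arrays left out, and the clock list mean as a covariate. The same-numbered WT arrays did not deviate together (correlations 0.09, -0.28, -0.06 and -0.03), so the replicate numbers were not taken as pairs. Near-identical genes may share signal.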

Additional observations from a re-analysis of the deposited data

Results flagged for a closer look

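In 23 of the 600 sets of 4 arrays examined (2 for each of 300 named genes), 1 array stood apart from the other 3 by more than Dixon's critical value, and chance gives about 1 in 20 sets. WT saline 1 stood apart in Cox7a2 (11.01, against 10.69 to 10.72, higher) and Lat (9.91, against 9.86 to 9.87, higher). WT saline 2 stood apart in Cd200r4 (7.97, against 7.73 to 7.75, higher), Cnn1 (10.94, against 11.47 to 11.53, lower), Lta (8.33, against 8.09 to 8.13, higher), Ms4a1 (11.15, against 10.78 to 10.80, higher) and Spdef (9.01, against 9.10 to 9.12, lower). WT saline 3 stood apart in Hdc (10.19, against 10.10 to 10.11, higher), Itih4 (10.72, against at least 10.98, lower) and Nr1d2 (11.26, against 11.44 to 11.48, lower). WT saline 4 stood apart in Bpifb1 (12.05, against 11.37 to 11.46, higher) and Madcam1 (8.07, against 8.19 to 8.21, lower). WT HDM 1 stood apart in Chil4 (10.76, against 11.95 to 12.17, lower), H2-Ab1 (13.3, against at most 13.05, higher), Trem1 (8.18, against 7.83 to 7.87, higher) and Tslp (8.61, against 8.10 to 8.13, higher). WT HDM 2 stood apart in Dnajb1 (9.99, against 9.58 to 9.63, higher), Elane (8.03, against 8.28 to 8.31, lower) and Gapt (10.44, against 10.84 to 10.90, lower). WT HDM 3 stood apart in Pdcd1lg2 (8.39, against 8.05 to 8.08, higher). WT HDM 4 stood apart in Csf3r (9.3, against 9.02 to 9.06, higher), Marco (8.71, against 8.20 to 8.28, higher) and Mrc1 (11.25, against 10.92 to 10.96, higher).

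For 32 of the 300 counted named genes the change after HDM differed between KO and WT by the interaction test of limma (adjusted p under 0.05). The values are the KO change minus the WT change on the log2 scale. Klhl38 and Fxyd4 also passed but are outside this count. The KO change was the higher one for Adamts9 (0.82), Arg1 (2.71), Ccl11 (1.17), Ccl24 (3.61), Ccr8 (1.02), Cd209e (2.07), Col1a1 (0.42), Col3a1 (0.43), Ddah2 (0.42), Eln (0.69), Hspa1a (1.74), Itln1 (0.89), Klhl13 (0.69), Nos2 (0.81), Ocstamp (1.51), Psmb10 (0.67), Rnase2a (3.9), Slc7a1 (0.63), Tfpi2 (0.85) and Tnc (1.02). It was the lower one for Abcg1 (-0.52), Chad (-0.94), Clec9a (-0.57), Dbp (-1.27), Hal (-2.48), Lamp3 (-0.54), Msln (-0.66), Muc16 (-0.83), Orm1 (-1.49), Scgb3a2 (-0.98), Sftpd (-0.59) and Sntn (-1.07).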

How the results depend on the processing

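The count of 3505 WT calls was 2787 with only the 8 WT arrays in the fit, 2885 after quantile normalization, 3184 with arrays shifted to the same median, 3486 with a variance trend and robust moderation together, 4381 with array weights and 3514 with probe sets of a gene averaged. It was 2289 among genes above the 50th percentile of level, where fewer genes were tested. It was 1057 without WT saline 2 and 3 together, where 2 saline arrays were left, and 1110 with the clock score as a covariate; the cause was not tested. With 1 WT array left out it ranged from 1960 to 3611. The replicate block gave 3543 WT calls and ended 3 of the 163 calls named in the text, although the numbers do not pair the arrays. Of the same-numbered WT arrays, only those numbered 1 were each other's best match. For the interaction the block gave 258 calls against 160. The interaction had 12 calls without WT saline 2 and 3 together, and from 41 to 1019 with 1 array left out.

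Of the 163 named calls the fit to only the 8 WT arrays, where the KO arrays give no part of the spread, ended 28 (Retnla, Mmp12, Gpnmb, Ctsk, Trem2, Foxp3, Muc5b and Scgb1a1 among them). Quantile normalization ended 20, the shift to the same median 4, leaving out WT saline 2 and 3 together 64, and the clock covariate 72. Among the 20, the falls were Ccr6, Chit1, Il12b, Il25, Lta, Ly6g, S100a9 and Trem1. The rises were Alox5, Apoe, Arg2, Cd74, Chst2, Ern1, Il1rn, Kit, Lrp2, Nr1d2, Scgb1a1 and Stat6. Under the clock covariate the changes of Lta (0.01) and Per2 (-0.02) took the opposite sign, neither passing, and Per2 is itself a gene of the score. No other named call reversed in any alternative that was run. The count of calls in a list moved by over 1.5 times in 28 of 46 lists without WT saline 2 and 3, in 7 after quantile normalization and in 3 after the shift.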
